A study of Mus musculus with 12 samples.

Results

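The comparison concerned 6 of the 12 bulk RNA-seq libraries of the series: 3 of OT-I CD8 T cells recovered from tumours 14 days after transfer and 3 of OT-I effector T cells. They were chosen by their labels, and all genes were compared. OT-I cells come from a transgenic mouse whose T cells carry 1 receptor, specific for a peptide of chicken ovalbumin on the class I molecule H-2Kb, so every group shares this receptor. Per the labels, the day 14 cells, called exhausted there, were transferred into C57Bl6/J mice bearing B78ChOVA tumours. B78ChOVA is a melanoma line that expresses ovalbumin with mCherry. The day 14 cells were sorted from these tumours as CD44+ OT-I cells at sacrifice, on day 14. The effector cells were made in vitro by antigenic stimulation for 5 days, with no tumour and no transfer. The groups therefore differ in host, in culture, in time since stimulation and in the sort, and these cannot be told apart. The other 6 libraries were of naive OT-I cells from lymph nodes of tumour-free OT-I mice and of OT-I cells sorted from the same kind of tumour on day 4. They entered the fit and serve here for reference. The age of the animals is not given in the sources used here, nor whether animals or cultures were pooled. The labels do not say that replicates came from separate cultures or animals, so p-values measure the spread between these samples, which may be technical.

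T cell exhaustion is the state that CD8 T cells enter when antigen persists, as in chronic infection and in tumours. Such cells keep inhibitory receptors such as PD-1 on their surface, need the DNA-binding factor TOX, and lose cytokine output and long-term renewal. NFAT acting without enough AP-1 is known to drive the NR4A and TOX factors of this state, while TCF-1, encoded by Tcf7, keeps a smaller progenitor-like pool that can renew. Effector cells made in culture are usually taken as the functional, recently activated state against which the exhausted state is read.

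The day 14 libraries held 15137864, 16835230 and 17094006 gene counts, and the effector libraries 14499885, 12181783 and 13772489. Levels are in CPM, counts scaled by library size and TMM factors, and are always given in the order of replicates 1, 2 and 3. On log2 CPM over all genes tested, Pearson's r was 0.970 to 0.977 within the day 14 group and 0.970 to 0.979 within the effector group. Between the groups it was 0.808 to 0.862 over 9 pairs, and between effector and naive libraries 0.938 to 0.958. The effector libraries thus stood near the naive ones, and their markers were mixed. Gzmb, the cytotoxic protease granzyme B, was at 10.9, 189 and 32.3 CPM in the effector libraries, 1.55, 0.956 and 0.765 in the naive ones and 1304, 965 and 949.8 at day 14. Perforin (Prf1), the pore-forming protein, was at 10.5, 10.1 and 13.2 CPM in the effector libraries, below its 39.2, 46.0 and 39.3 CPM in naive cells. Ifng, interferon gamma, was at 0, 0.344 and 0.387 CPM. Tcf7, a gene of resting T cells, was at 1748, 1725 and 1863 CPM, above its naive 1115, 1187 and 1245 CPM. Against this, Il2ra, the activation-induced IL-2 receptor alpha chain, was at 101, 193 and 188 CPM in the effector libraries and 0.961, 1.75 and 1.68 in the naive ones. Cd44 was at 48.5, 90.1 and 82.9 against 26.8, 17.7 and 25.5 CPM. The list of cytotoxic genes summed to 1169, 1715 and 1496 CPM in the effector libraries, 1121, 1093 and 1193 in the naive ones and 4511, 3923 and 3762 at day 14. The libraries labelled effector were thus above the naive ones in Il2ra, Cd44 and Gzmb and below them in Prf1, and each direction below is relative to that state. Replicate 2 of this group stood apart: in 76 of the 7021 genes with a mean log2 CPM of at least 4 it was at least 2-fold above both other effector libraries, Gzmb and Mki67 among them. Where it decides a value, the value without it is given. Cx3cr1, Ccl1 and Cdkn2a, given below as folds on 1 effector count, also rested on it. Their log2 fold changes of day 14 over effector were 9.97, 9.70 and 5.50, and 11.99, 11.72 and 7.52 without it.

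RNA of other cells also differed between the groups. The 12 melanoma markers summed to 2076, 877 and 519 CPM at day 14 and 46.5, 44.8 and 44.1 CPM in the effector libraries, with day 4 at 1331, 1211 and 898 CPM. Among them Dct, a pigment enzyme, was at 1214, 492 and 318 CPM at day 14 and 0.575, 0.774 and 0.928 CPM in the effector libraries, and Tyr, Tyrp1 and Sox10, each without a count in the effector group, were at least 153-fold, at least 702-fold and at least 135-fold higher. Pmel accounted for most of the effector sum, with 41.3, 35.5 and 35.6 CPM there. All 12 of 12 melanoma markers were called higher, against 32.6% of all genes tested. So were 12 of the 16 tested macrophage and monocyte markers (summed 129, 72.1 and 93.5 CPM against 15.4, 14.3 and 11.4), 6 of 9 dendritic cell and MHC class II genes (189.5, 228 and 199 against 11.1, 26.1 and 21.9) and 6 of 6 fibroblast genes (109, 59.0 and 30.2 against 0.791, 0.688 and 1.24). Of the fibroblast sum, Sparc, which melanoma cells also express, gave 100.4, 42.4 and 21.3 CPM. Apoe had the highest CPM of the macrophage markers, in the same order as the melanoma sum, at 65.2, 36.8 and 31.1 CPM at day 14 and 4.31, 3.27 and 3.4 CPM in the effector libraries, and the complement genes C1qa, C1qb and C1qc had no count in the effector libraries. Among the CD4 and regulatory T cell markers Cd4 alone was called, at 4.49, 3.94 and 2.36 against 0.0719, 0.946 and 0.542 CPM. The 8 T cell markers summed to 4148, 4280.2 and 4253 CPM at day 14 and 6060.2, 5577 and 6136 CPM in the effector libraries. In bulk RNA, fewer cells of a type and less RNA per cell cannot be told apart. The melanoma sum spanned 4.00-fold among the day 14 libraries, highest in replicate 1 and lowest in replicate 3, and genes named below whose day 14 values follow that order over at least 1.87-fold are marked as such. The part of tumour, myeloid or stromal RNA in a gene's difference was not tested.

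**Figure D1:**
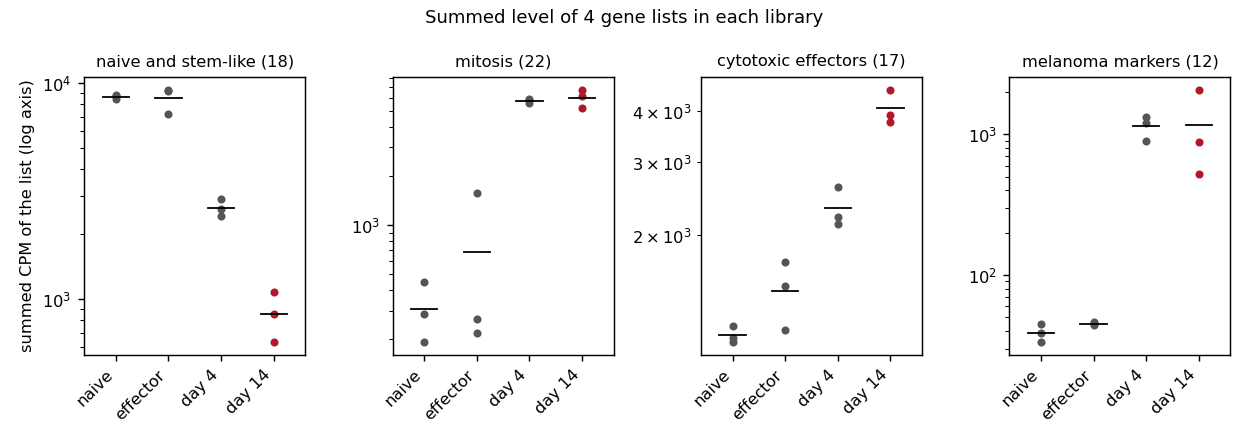
Summed CPM of 4 gene lists in each of the 12 libraries, on a log axis that differs between panels, by group; points are libraries and bars are group means. The day 14 points lie below all other groups for the naive and stem-like genes (632 to 1080 CPM), beside day 4 for mitosis, above all others for the cytotoxic effectors (3762 to 4511 CPM), and spread from 519 to 2076 CPM for the melanoma markers.

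Most of the transcriptome differed. Of 55401 gene identifiers, 16426 passed the filter on low counts and were tested. edgeR's quasi-likelihood test called 10025 of them (61.0%) at a Benjamini-Hochberg adjusted p under 0.05, 5356 higher (32.6%) and 4669 lower (28.4%) at day 14. Changes of at least 2-fold were called in 6197 genes (37.7%), 3585 higher (21.8%) and 2612 lower (15.9%). Large rises outnumbered large falls: 2364 genes (14.4%) were called higher by at least 4-fold and 1096 (6.67%) lower by at least 4-fold. Protein-coding genes were split into 4 bins of mean log2 CPM. Higher calls outnumbered lower ones only in the lowest bin, up to 1.91, with 48.2% higher and 13.6% lower (median 1.48). In the other bins 30.2%, 32.4% and 34.4% were higher and 32.5%, 36.6% and 38.3% lower. Their medians were -0.05, -0.05 and -0.04. The median log2 fold change over all genes was 0.06, with quartiles of -0.70 and 0.99. In 10924 genes (66.5%) the 3 day 14 values did not overlap the 3 effector values. Genes called higher held 41.2% to 42.6% of all counts in the day 14 libraries and 19.1% to 20.3% in the effector libraries, whereas genes called lower held 25.7% to 26.2% against 48.3% to 49.8%. With so large a background, a gene list is read here by how far its counts and median depart from these shares. The 35 function lists held 600 distinct tested genes, of which 338 rose, 144 fell and 118 were not called. Log2 fold changes are day 14 over effector, with their standard errors.

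**Figure D2:**
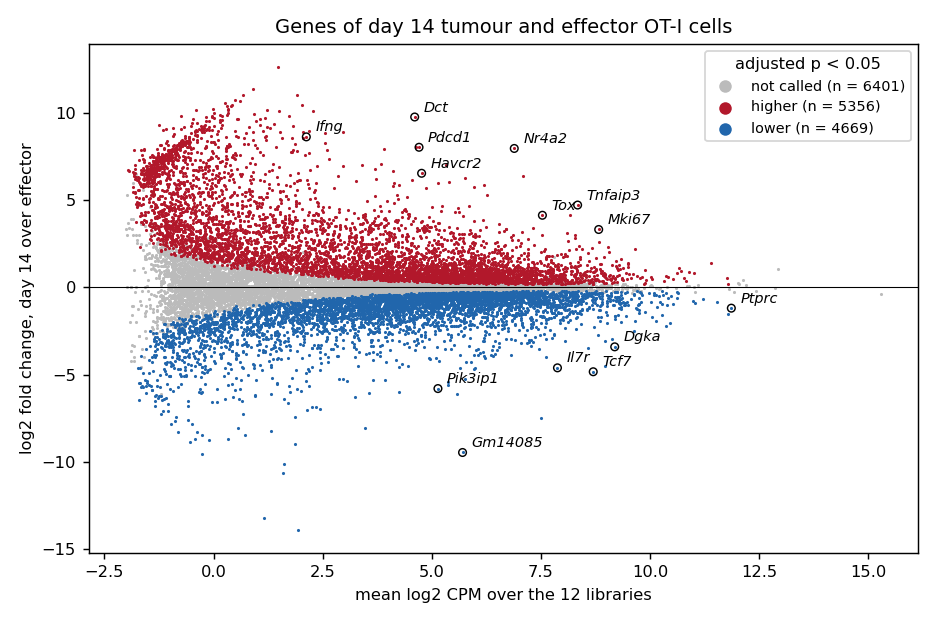
Log2 fold change of day 14 over effector libraries against mean log2 CPM over the 12 libraries for 16426 genes, with genes called higher in red, called lower in blue and not called in grey. The labelled genes include Nr4a2 and Pdcd1 near a log2 fold change of 8, Il7r at -4.61 and Tcf7 at -4.84, all among well-measured genes.

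**Figure D3:**
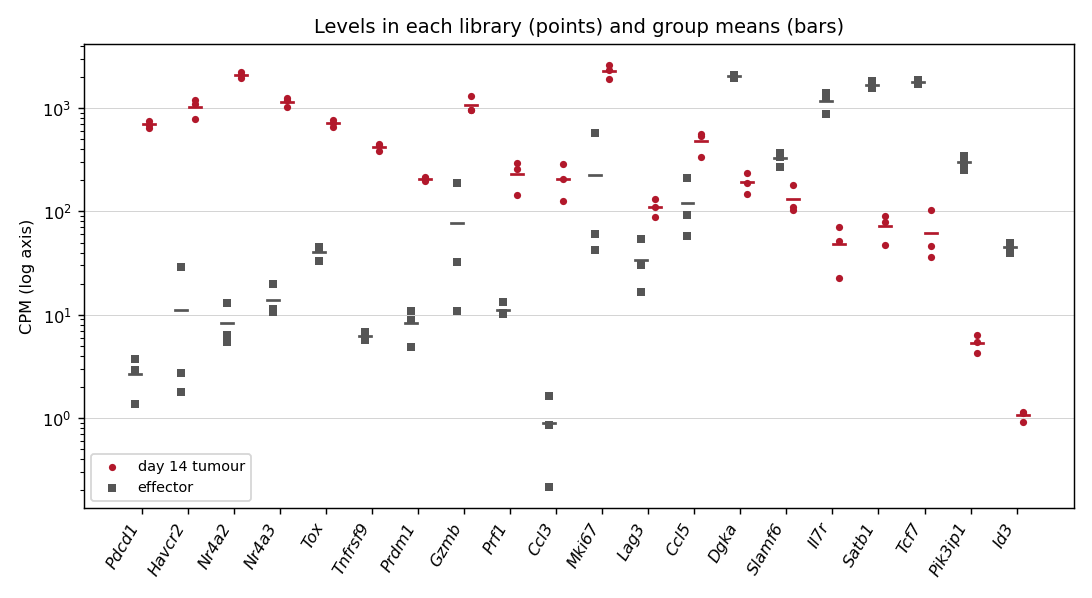
CPM of 20 genes on a log axis in the 3 day 14 libraries (red circles) and the 3 effector libraries (grey squares), with group means as bars. For each gene shown the 2 sets of points do not overlap, and the rises of Pdcd1, Havcr2 and Nr4a2 cover a wider range than the falls of Dgka or Slamf6.

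The inhibitory receptors were mostly raised, with 13 of 16 higher, 2 lower and a median log2 fold change of 2.47. Pdcd1, which encodes PD-1, was at 646, 756 and 688 CPM at day 14 and 1.37, 3.70 and 2.94 CPM in the effector libraries (8.05 ± 0.31, adjusted p = 1.79e-09). Tigit, a receptor for nectin-family ligands, was at 597, 537 and 548 CPM against 9.42, 34.7 and 22.4 CPM, and Ctla4, which competes with CD28 for its ligands, at 1206, 882 and 991 against 266, 254 and 367 CPM. Every day 14 value of these 3 genes lay above every effector value, but the steps differed: 4.67 ± 0.39 for Tigit and 1.79 ± 0.18 for Ctla4. Havcr2 (TIM-3) was at 1092, 1190.2 and 792 CPM at day 14 and 2.73, 29.0 and 1.78 CPM in the effector libraries, and its log2 fold change of 6.56 ± 0.96 became 8.81 without effector replicate 2. Cd244a behaved likewise (6.0, and 7.11 without that library). Lag3, a ligand of MHC class II, rose by a smaller step (1.71 ± 0.36), with 131, 111 and 88.1 CPM at day 14 and 16.7, 30.3 and 53.6 CPM in the effector libraries. Entpd1 (CD39), which degrades extracellular ATP, was at 88.5, 74.3 and 46.3 CPM against 3.38, 7.31 and 7.66 CPM (3.52 ± 0.41), with day 14 values in the melanoma order over 1.91-fold. Klrg1, a marker of terminal effector cells rather than of exhaustion, also rose, from below 1 CPM to 21.9, 20.05 and 21.9 CPM. The members that fell were Vsir (VISTA), at 52.0, 57.0 and 46.7 against 199, 203 and 184 CPM (-1.91 ± 0.11), and Cd96 (-0.46 ± 0.09). Btla, the herpesvirus entry mediator receptor, was at 43.4, 38.0 and 55.5 and 41.4, 34.1 and 50.7 CPM (0.12 ± 0.18), with overlapping groups.

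The costimulatory receptors split: 7 of 11 rose and 3 fell (median 0.95). The activation-induced TNF receptors rose furthest. Tnfrsf9 (4-1BB) was at 449, 438 and 383 CPM at day 14 and 5.75, 6.28 and 6.81 CPM in the effector libraries (6.07 ± 0.16, adjusted p = 7.17e-14). Tnfrsf4 (OX40) was at 178, 166 and 159 against 5.75, 7.31 and 7.58 CPM (4.61 ± 0.15), and Tnfrsf18 (GITR) rose by 2.17. In all 3 the groups were far apart and the 3 libraries of each group close together. Icos and Cd28, of the CD28 family, rose by 1.19 and 0.52. The fallers were Tnfrsf14, the BTLA partner HVEM, at 21.3, 19.1 and 18.3 against 75.8, 94.8 and 73.4 CPM (-2.06 ± 0.12), Cd27 (-0.73 ± 0.08) and Cd226, the activating competitor of TIGIT (-0.80 ± 0.12). Tigit rose while Cd226 fell in the same libraries, with Cd226 at 162, 156 and 159.8 CPM against 271, 257 and 304 CPM.

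Transcription factors of exhaustion and those of the naive state moved in opposite directions. Of 16 exhaustion-associated factors 15 rose and none fell (median 3.23), whereas of 18 naive and stem-like genes none rose and 17 fell (median -3.35). The NR4A orphan nuclear receptors, induced by antigen receptor signals, were among the highest risers. Nr4a2 was at 1959, 2253 and 2082 CPM at day 14 and 6.40, 5.51 and 12.9 CPM in the effector libraries (7.98 ± 0.28, adjusted p = 1.19e-09), Nr4a3 at 1186, 1031 and 1251 against 11.4, 10.6 and 19.8 CPM (6.37 ± 0.28) and Nr4a1 at 114, 152 and 154 against 1.65, 1.55 and 2.48 CPM (6.20 ± 0.29). All 3 paralogues were therefore low in every effector library and high in every day 14 library. Tox was at 662, 774 and 721 CPM at day 14 and 33.0, 44.1 and 44.9 CPM in the effector libraries (4.15 ± 0.13, adjusted p = 9.99e-13). Its relative Tox2 had no count in the effector libraries and 5.61, 14.8 and 11.2 CPM at day 14, at least 137-fold higher. Bhlhe40, a repressor linked to cytokine production, was at 1088, 955 and 1031 against 12.9, 27.3 and 15.8 CPM (5.79 ± 0.25), and Prdm1 (BLIMP-1), a driver of terminal differentiation, at 213, 211 and 195 against 4.89, 10.8 and 8.97 CPM (4.66 ± 0.64). Id2 and Eomes rose by 3.54 ± 0.25 and 2.92 ± 0.34. The AP-1 partner Batf and its cofactor Irf4 rose less, by 1.83 ± 0.11 and 1.10 ± 0.33. Ikzf2 (Helios) was not called, at 259, 305 and 329.6 against 142, 289 and 151 CPM (0.62 ± 0.27).

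Among the naive and stem-like genes, Tcf7, the gene of TCF-1, was at 46.0, 36.6 and 104 CPM at day 14 and 1748, 1725 and 1863 CPM in the effector libraries (-4.84 ± 0.37, adjusted p = 3.49e-06). No day 14 library came within 10-fold of an effector library for this gene, and day 14 replicate 3 held the most: without it the log2 fold change was -5.43. Id3, the inhibitor of E proteins paired with TCF-1 in progenitor cells, was at 0.924, 1.12 and 1.15 against 39.6, 49.0 and 46.4 CPM (-5.39 ± 0.32), so Id2 and Id3 changed in opposite directions. Satb1, a chromatin organiser of T cells, was at 79.0, 47.5 and 90.7 against 1833, 1581 and 1583 CPM (-4.52 ± 0.29). Lef1, Bach2 and Foxp1, all repressors of effector differentiation, fell (-3.86, -3.92 and -2.85). Slamf6 (Ly108), a surface marker of progenitor exhausted cells, fell by a smaller step, from 339.8, 268 and 369.7 to 112, 104 and 181 CPM (-1.30 ± 0.22). Bcl6 was not called (-0.03 ± 0.19), with 48.3, 28.0 and 48.0 CPM at day 14 and 39.8, 40.2 and 46.8 CPM in the effector libraries, which overlap.

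Genes of the T cell receptor complex and its proximal kinases fell more often than they rose: 14 of 21 were lower and 4 higher (median -0.61). Ptprc (CD45), the phosphatase that licenses LCK, was at 2624, 2401 and 2758 CPM at day 14 and 5928, 5919 and 5881 CPM in the effector libraries (-1.19 ± 0.07, adjusted p = 1.04e-09), which placed it among the 10 largest falls in CPM. The coreceptor chains differed from each other. Cd8b1 was at 371, 361 and 409 against 1256, 1025 and 1211 CPM (-1.61 ± 0.10), whereas Cd8a was at 1295, 1328 and 1298 against 1582, 1384 and 1599 CPM (-0.22 ± 0.09, adjusted p = 0.0394) and lost its call in 14 alternative fits. Among these were each fit without 1 day 14 library and those without effector replicate 1 or 3, naive replicate 2 or 3, or day 4 replicate 2 or 3. Of the CD3 chains, Cd3d fell (-0.93 ± 0.09) and Cd3e and Cd3g were not called. Prkcq, the kinase that links the receptor to NF-kB, fell furthest, from 478, 497 and 427 to 131, 112 and 149 CPM (-1.84 ± 0.10), and the adaptors Grap2 and Lat fell (-1.36 and -0.97). Zap70, the kinase recruited by the CD3 chains, rose (0.91 ± 0.11), at 119.7, 138 and 135 against 61.5, 80.9 and 66.9 CPM with no overlap. Malt1, Lcp2 and Bcl10 also rose, by 0.48, 0.42 and 0.39, the last not called without effector replicate 3 (0.35) or without day 14 replicate 3 (0.24).

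Brakes on T cell receptor signals rose more often than they fell, 17 against 6 of 26 (median 0.67). The dual-specificity phosphatases of the MAP kinases rose together. Dusp4 was at 215, 195 and 208 CPM at day 14 and 0.647, 1.12 and 0.774 CPM in the effector libraries (7.93 ± 0.17, adjusted p = 9.67e-15), and Dusp5, which acts on nuclear ERK, was at 151, 172 and 165 against 2.08, 7.05 and 3.4 CPM (5.31 ± 0.43). Dusp6 and Dusp2 rose by 3.08 and 1.99, and Dusp1, outside the list but among the 15 highest log2 fold changes of well-measured genes, was at 634, 474 and 411 against 5.10, 5.42 and 8.66 CPM (6.30 ± 0.28). Each of these 5 was low in all 3 effector libraries and higher in all 3 day 14 libraries. The RAS-pathway inhibitor Spry2 rose by 6.15, or 7.13 without effector replicate 3, and Spry1 by 21.9-fold (95% counting interval 7.22 to 108) on 3 effector counts. Tnfaip3 (A20), the ubiquitin editor that ends NF-kB signals, was at 2288, 1826 and 2025 CPM at day 14 and 71.7, 80.5 and 78.8 CPM in the effector libraries (4.73 ± 0.17, adjusted p = 2.71e-11) and had 1 of the 10 largest rises in CPM. Cblb, a ubiquitin ligase of tolerance, rose by 0.95 ± 0.11, and Ubash3b, a phosphatase that acts on ZAP-70, by 2.37 ± 0.13. Against these, Dgka, the diacylglycerol kinase of anergic cells, was at 189.5, 149 and 236 against 2106, 2022 and 1962 CPM (-3.41 ± 0.13, adjusted p = 6.82e-12), 1 of the 10 largest falls. Pag1, which anchors the inhibitory kinase CSK, fell (-1.93), and Cbl, Socs1, Ubash3a and Sla2 also fell (-1.03, -0.89, -0.55 and -0.42). The falls of Socs1 and Sla2 were not called without day 14 replicate 1 (-0.68 and -0.34), that of Socs1 also without effector replicate 3 (-0.76), and that of Sla2 also without effector replicate 2 (-0.34) or day 14 replicate 3 (-0.31). The G protein regulators Rgs16 and Rgs2, which shorten chemokine receptor signals, rose with the brakes. Rgs2 was at 327, 404 and 302 CPM at day 14 and 2.88, 3.53 and 1.55 CPM in the effector libraries (7.03 ± 0.26), and Rgs1, from the residency list, at 516, 390.0 and 440.0 against 6.97, 8.95 and 10.2 CPM (5.69 ± 0.24).

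Immediate early genes, transcribed within minutes of a signal, were higher in 14 of 16 and lower in none (median 2.31). The AP-1 subunits differed in size of rise. Fosb was at 123, 95.4 and 82.6 CPM at day 14 and 0.216, 0.172 and 0.232 CPM in the effector libraries (8.85 ± 0.51) and Fos at 95.1, 57.6 and 48.1 against 0.359, 0.258 and 0 CPM (8.27 ± 0.48, and 9.03 without effector replicate 1), with day 14 values in the melanoma order over 1.98-fold. Fosl2 and Junb rose by 5.29 ± 0.33 and 4.08 ± 0.22, and Jun by 2.40 ± 0.33. The 3 FOS-family rises were each larger than those of Jun and Junb, a difference that was not tested. The zinc finger factor Egr1 was at 389, 266 and 282 against 43.3, 37.8 and 44.5 CPM (2.90 ± 0.23), and Egr2 and Egr3, known in anergic T cells, rose by 2.0 and 1.72. Myc, which drives growth, and the antiproliferative Btg2 were not called (-0.43 ± 0.20 and 0.04 ± 0.14). Myc was at 67.3, 71.8 and 87.5 against 85.9, 88.9 and 130.4 CPM, and without day 4 replicate 1, with a replicate block or with no filter on low counts 1 gene of the list was called lower. In the NF-kB list 10 of 14 rose and 1 fell (median 1.07). Rel, the c-Rel subunit, was at 966, 694 and 1037 CPM at day 14 and 179.7, 213 and 159 CPM in the effector libraries (2.29 ± 0.14), while Rela and Nfkb1 were not called (-0.13 ± 0.11 and 0.10 ± 0.16). The inhibitors Nfkbia, Nfkbib and Nfkbie rose by 1.82, 1.19 and 1.22, and the adaptor Traf1 fell (-1.09 ± 0.11), at 212, 183 and 219 against 419, 451 and 441 CPM.

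Promoter sequences were read for the genes that these lists turn on, because the raised group holds classic targets of receptor signals. In RefSeq's table for GRCm38.p6, 13321 promoter windows of 250 bases before to 50 after a start belonged to tested genes. They covered 10466 of the 16424 distinct gene names tested. Shares are per window, so a gene with several starts counts more than once. Each motif was searched on both strands. The AP-1 letters TGANTCA were in 8.25% of windows of genes called higher by at least 4-fold, 6.52% of those called lower by at least 4-fold and 5.36% of all windows. The nuclear receptor half-site AGGTCA was in 13.4%, 15.2% and 12.8% in the same order, and the NFAT letters TGGAAA in 19.6%, 19.0% and 17.3%. For the CRE core TGACGT, the site of CREB and ATF factors, the shares were 8.20%, 7.31% and 11.2%, and for the ETS letters CCGGAAG 6.53%, 9.31% and 17.1%. The NF-kB letters GGGANTT were in 16.4%, 15.8% and 17.1%, and the TATA letters TATAAA in 11.02%, 10.9% and 7.53%. The EGR letters GTGGGCG were in 10.9%, 8.24% and 13.4%, and the TCF/LEF letters TTCAAAG in 4.28%, 5.45% and 3.68%. The E2F letters (TTCCCGC or TTGGCGC) were in 10.03%, 7.18% and 11.4%, the HIF letters (TACGTG or GACGTG) in 10.5%, 7.98% and 12.4%, and CCAAT in 38.7%, 34.8% and 37.7%. The AP-1, TATA, half-site, NFAT and TCF/LEF letters were thus more frequent in windows of both the raised and the lowered genes than in all windows, the CRE, ETS, NF-kB, EGR, E2F and HIF letters less frequent in both, and CCAAT was divided. No test was made of these shares. Below are the 250 bases before the start for 5 genes with far-apart groups, 4 raised (Nr4a3, Dusp1, Tnfaip3, Pdcd1) and 1 lowered (Pik3ip1, an inhibitor of PI3K), 5′ to 3′ on the gene's strand. Capitals mark matches to the AP-1, CRE, half-site, NFAT, NF-kB, EGR, TCF/LEF and TATA letters only. The ETS, E2F, HIF and CCAAT letters were not marked, though some occur. The HIF letters GACGTG overlap a CRE core in Nr4a3 and in Tnfaip3, and Dusp1 holds the E2F letters TTGGCGC as their complement. Marked are 3 CRE cores in Nr4a3 and 3 in Dusp1, of which the pair nearest the start overlaps as a palindrome. Tnfaip3 has 1 AP-1 match with CRE, NFAT, NF-kB and TATA letters, Pdcd1 the AGGTCA half-site and Pik3ip1 the NFAT letters. A match on the other strand is printed as its complement, so the half-site reads TGACCT in Pdcd1 and the NFAT letters TTTCCA in Tnfaip3. RefSeq's table holds a second start of Tnfaip3, whose 250 bases, not printed, hold none of the motifs marked. Nor do those of several other raised genes with far-apart groups, among them Nr4a1, Fosb, Rgs16 and Tigit. The printed genes are therefore examples and do not stand for all raised genes. The AP-1 letters are in 4.56% of all windows of this shorter length, the CRE core in 9.62%, the half-site in 11.1% and the NFAT letters in 15.4%. A match is a description of letters, and binding was not measured.
Nr4a3, chr4:48045055-48045304, plus strand: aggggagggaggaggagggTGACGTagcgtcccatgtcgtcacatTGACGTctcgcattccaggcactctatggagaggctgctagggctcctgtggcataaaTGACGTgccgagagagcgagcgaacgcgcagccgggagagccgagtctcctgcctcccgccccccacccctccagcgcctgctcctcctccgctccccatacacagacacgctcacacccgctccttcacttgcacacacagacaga
Dusp1, chr17:26508473-26508722, minus strand: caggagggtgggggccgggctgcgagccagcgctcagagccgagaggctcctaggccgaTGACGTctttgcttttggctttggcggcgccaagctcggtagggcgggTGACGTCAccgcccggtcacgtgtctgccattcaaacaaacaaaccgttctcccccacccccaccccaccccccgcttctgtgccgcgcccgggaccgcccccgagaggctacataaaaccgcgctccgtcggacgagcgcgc
Tnfaip3, chr10:19015411-19015660, minus strand: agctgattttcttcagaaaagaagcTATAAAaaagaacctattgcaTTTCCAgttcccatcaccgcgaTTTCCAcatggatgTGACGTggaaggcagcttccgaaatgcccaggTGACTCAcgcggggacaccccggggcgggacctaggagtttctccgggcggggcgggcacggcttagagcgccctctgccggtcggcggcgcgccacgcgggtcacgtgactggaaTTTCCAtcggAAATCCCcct
Pdcd1, chr1:94052554-94052803, minus strand: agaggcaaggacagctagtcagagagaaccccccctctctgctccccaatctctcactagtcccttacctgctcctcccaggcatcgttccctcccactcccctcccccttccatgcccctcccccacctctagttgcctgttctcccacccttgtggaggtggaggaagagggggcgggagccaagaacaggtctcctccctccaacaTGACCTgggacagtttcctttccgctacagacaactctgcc
Pik3ip1, chr11:3330481-3330730, plus strand: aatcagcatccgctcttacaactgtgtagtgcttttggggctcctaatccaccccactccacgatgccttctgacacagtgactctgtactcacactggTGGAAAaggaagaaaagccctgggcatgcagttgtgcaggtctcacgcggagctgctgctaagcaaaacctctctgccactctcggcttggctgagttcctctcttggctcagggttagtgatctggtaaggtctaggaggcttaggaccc

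Cytotoxic effector genes were mostly higher than in the effector libraries: 12 of 17 tested rose and 2 fell (median 1.26). Prf1 was at 256, 291 and 144 CPM at day 14 and 10.5, 10.1 and 13.2 CPM in the effector libraries (4.35 ± 0.27, adjusted p = 9.31e-08), with no overlap. Gzmk, a granzyme of memory and exhausted cells, was at 211, 268 and 237 against 1.37, 6.71 and 0.696 CPM (6.40 ± 0.59, and 7.83 without effector replicate 2). Gzmb was higher in every day 14 library (3.8 ± 0.90), but its size rested on effector replicate 2, without which it was 5.64, and it was not called when only the 6 compared libraries were fitted (adjusted p = 0.0517). Gzmc (6.34) moved to 8.90 without that library and to 5.75 without effector replicate 1. Gzmf had no effector count and was at least 32.4-fold higher, with day 14 values of 4.42, 2.65 and 0.666 CPM that follow the melanoma order. Fasl, the death ligand, and Serpinb9, which protects killer cells from granzyme B, rose by 4.17 ± 0.37 and 3.18 ± 0.12, and the granule protein Nkg7 by 2.21 ± 0.12. The members that fell were Klrd1 (CD94), at 89.7, 64.0 and 70.9 against 191, 191 and 299 CPM (-1.60 ± 0.24), and the lysosomal Lamp1 (-0.46 ± 0.12). Gzma, granzyme A, was at 12.9, 4.00 and 13.5 against 6.54, 153 and 4.49 CPM and was not called.

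Secreted factors that act on myeloid cells had the highest median of all the function lists, 5.27 (5.17 with the gene at 0 in the effector group set to its bound), with 15 of 18 higher and 1 lower. Ifng was at 123, 93.7 and 75.8 CPM at day 14 and 0, 0.344 and 0.387 CPM in the effector libraries (8.65 ± 0.42, adjusted p = 1.80e-09), and its log2 fold change was 8.06 without effector replicate 1 and 9.23 without effector replicate 3. The inflammatory chemokine gene Ccl3 was at 290.0, 208 and 125 against 0.216, 1.63 and 0.851 CPM (7.89 ± 0.58, and 8.61 without effector replicate 2), and Ccl4 at 64.9, 55.0 and 34.6 against 0.359, 3.01 and 1.32 CPM (5.08 ± 0.59, and 5.95). Ccl5, another inflammatory chemokine gene, rose less (2.0 ± 0.56, and 2.69 without the same library), from 92.0, 212 and 57.3 to 538, 568 and 339.8 CPM. In Ccl3 and Ccl4 the day 14 values fell in the order of the melanoma sum, over 2.32-fold and 1.87-fold. Xcl1, which attracts cross-presenting dendritic cells, was at 185, 122 and 248 CPM at day 14 and 0.647, 3.35 and 4.8 CPM in the effector libraries (6.0 ± 0.52, and 6.63 without effector replicate 3), and did not follow that order. Csf1, the growth factor of macrophages, was at 32.8, 43.4 and 16.4 against 0.719, 0.602 and 0.542 CPM (5.61 ± 0.50). Il10, an inhibitory cytokine, was at 16.2, 25.3 and 16.8 against 0, 0.344 and 0.0774 CPM. Ccl1, the ligand of CCR8, was 1099-fold (95% counting interval 197 to 43427) higher on 1 effector count, Csf2 (GM-CSF) 27.6-fold (95% counting interval 7.37 to 233) higher on 2 effector counts, and Ccl9 at least 38.4-fold higher with no effector count and day 14 values in the melanoma order. Tnf, in contrast, rose by 0.66 ± 0.25 only, at 13.6, 14.5 and 19.0 against 8.20, 8.52 and 13.1 CPM, and Lta was not called (-0.36 ± 0.27). Flt3l, the growth factor of dendritic cells, fell from 107, 112 and 103 to 32.2, 33.5 and 29.8 CPM (-1.76 ± 0.12). Macrophage markers were higher in the same libraries, as given above, and the source of each transcript was not tested.

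Receptor genes for chemokines and sphingosine phosphate divided, with 7 lower and 6 higher of 14 (median -0.17). S1pr1, which lets T cells leave tissue, was at 7.86, 3.88 and 22.3 CPM at day 14 and 334, 244 and 264 CPM in the effector libraries (-4.63 ± 0.53, and -5.59 without day 14 replicate 3). Ccr9, a gut-homing receptor, was at 0.924, 0.470 and 0.908 against 95.8, 46.7 and 13.5 CPM (-6.08 ± 0.87, and -5.24 without effector replicate 1). Cxcr3, the receptor for interferon-induced chemokines, fell from 151, 175 and 194 to 35.5, 31.1 and 51.5 CPM (-2.14 ± 0.37). Ccr7, the lymph node homing receptor, fell by a small step (-0.91 ± 0.23), and Ccr4, S1pr4 and Cxcr5 fell (-2.48, -1.65 and -1.28). Among the risers, Cxcr6, which holds T cells near CXCL16-producing myeloid cells, was at 533, 539 and 389 against 143, 141 and 173 CPM (1.67 ± 0.33). Cxcr4 rose by 2.94 ± 0.14, and Ccr6 by 4.62 or 5.53 without effector replicate 2. Cx3cr1 was 1339.6-fold (95% counting interval 240.1 to 52943) higher on 1 effector count and Ccr8 459-fold (95% counting interval 127 to 3797) higher on 2. Both Ccr8 and its ligand gene Ccl1 were therefore near 0 in the effector libraries and at 20 to 41 CPM in the day 14 ones.

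Adhesion and residency genes did not move as a block: 10 of 18 rose and 6 fell (median 1.03). Itgae (CD103), which binds E-cadherin, was at 10.5, 5.29 and 10.6 CPM at day 14 and 401, 617 and 130.3 CPM in the effector libraries (-5.45 ± 0.64), and its partner chain Itgb7 fell too, from 333, 356 and 328 to 14.7, 17.0 and 40.1 CPM (-3.82 ± 0.34, and -4.42 without day 14 replicate 3). Itgav, the alpha chain of vitronectin receptors, rose from 56.3, 58.5 and 68.5 to 802, 616 and 559 CPM (3.43 ± 0.15), and its partner Itgb8, without an effector count, was at least 130.3-fold higher. The chains of the TGF-beta-activating pair thus rose while both chains of the CD103 pair fell. Itgb1 and Itga4, of the fibronectin receptor VLA-4, rose by 2.99 ± 0.36 and 1.30 ± 0.10. The residency markers Cd69 and Zfp683 (HOBIT) rose by 1.80 ± 0.24 and 2.24 ± 0.60, and Runx3 was not called (0.29 ± 0.14). Cd44 was at 450.4, 411 and 432 against 48.5, 90.1 and 82.9 CPM, but the day 14 cells were sorted on its protein, so this is no finding. Itga2, Selplg and Itgb3 fell (-1.75, -0.70 and -0.86), the last not called without effector replicate 2 (-0.46), day 14 replicate 1 (-0.87) or day 14 replicate 2 (-0.69).

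Cytokine receptors were lower in 12 of 21 and higher in 6 (median -0.51). Il7r, the survival receptor of naive and memory cells, was at 52.2, 22.9 and 69.9 CPM at day 14 and 1410.0, 884 and 1251 CPM in the effector libraries (-4.61 ± 0.44, adjusted p = 2.29e-05), and Il6ra at 1.45, 1.12 and 3.03 against 64.9, 29.7 and 35.8 CPM (-4.54 ± 0.40). The second chains of the interferon receptors, Ifngr2 and Ifnar2, fell (-3.12 ± 0.33 and -2.22 ± 0.18), whereas Ifngr1 was not called (0.12 ± 0.12) and Ifnar1 fell (-0.51). Of the IL-2 receptor, the beta chain Il2rb was at 1899, 2058 and 1694 CPM at day 14 and 305, 421 and 412 CPM in the effector libraries (2.31 ± 0.22), the common gamma chain Il2rg fell (-0.62 ± 0.09) and the alpha chain Il2ra was not called (0.40 ± 0.26). Il2rb had 1 of the 10 largest rises in CPM. The IL-18 receptor chains Il18rap and Il18r1 rose by 2.80 ± 0.39 and 2.20 ± 0.35, the IL-10 receptor Il10ra by 2.19 ± 0.27 and the IL-21 receptor Il21r by 1.76 ± 0.14. Tgfbr2 was called higher (0.21 ± 0.09) and lost that call in 8 alternative fits, among them those without day 14 replicate 1 (0.22), day 14 replicate 3 (0.22), effector replicate 3 (0.18), naive replicate 1 (0.21) or naive replicate 2 (0.21).

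Brakes on PI3K and targets of the FOXO factors, which PI3K signals silence, were lower in 10 of 18 and higher in 4 (median -0.97). Pik3ip1, whose promoter is shown above, was at 6.34, 4.23 and 5.51 CPM at day 14 and 297, 345 and 254 CPM in the effector libraries (-5.80 ± 0.17, adjusted p = 3.98e-13). The FOXO genes themselves, Foxo1 and Foxo3, fell (-1.12 ± 0.09 and -1.74 ± 0.13). Sesn1, a restraint on mTORC1, was at 25.7, 21.0 and 24.8 against 217, 199 and 192 CPM (-3.09 ± 0.12), and the quiescence factor Klf2 at 3.57, 3.23 and 3.45 against 24.2, 27.0 and 18.8 CPM (-2.77 ± 0.26). Txnip, which limits glucose uptake, fell (-2.18 ± 0.14). Opposing members included Klf4, at 44.4, 29.5 and 20.3 against 0.144, 0 and 0.232 CPM (7.82, and 8.53 without effector replicate 3, with day 14 values in the melanoma order), and, by under 1 log2 unit each, Tsc22d3 and Ddit4 (0.66 and 0.61). Ddit4 was not called without effector replicate 1 (0.44), effector replicate 2 (0.63) or day 14 replicate 2 (0.52).

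Cell cycle genes were higher in the tumour cells than in the effector libraries without exception in the DNA replication and mitosis lists. All 21 of 21 tested replication genes rose (median 2.68) and all 22 of 22 mitotic genes rose (median 3.27). Pcna, the sliding clamp, was at 511, 594 and 594 CPM at day 14 and 112, 149.9 and 117 CPM in the effector libraries (2.17 ± 0.12, adjusted p = 3.19e-10), and the helicase subunits Mcm2 to Mcm7 rose by 1.04 to 2.85. Lig1, Gins2 and Cdc6, of replication start and ligation, rose by 3.26, 3.92 and 4.05, the last by 5.36 without effector replicate 2. For mitosis that library mattered more. Mki67, a proliferation marker, was at 1912, 2329.8 and 2611 CPM at day 14 and 42.8, 579.6 and 60.8 CPM in the effector libraries (3.33 ± 0.99, adjusted p = 0.0179), with effector replicate 2 far above the other effector libraries. Without effector replicate 2 Mki67 stood at 5.46, Bub1 at 5.78 (from 3.83), Cdk1 at 4.99 (from 3.74) and Ccna2 at 6.57 (from 3.56). The mitosis list summed to 5248, 6155 and 6765 CPM at day 14 and 218, 1580.1 and 266 CPM in the effector libraries, so even that library lay below all day 14 values. When only the 6 compared libraries were fitted, 12 mitotic genes were called, and Mki67 was not (adjusted p = 0.0795). DESeq2 called 16.

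The G1 regulators split, 12 higher and 6 lower of 18 (median 0.76), and inhibitors of cyclin-dependent kinases were on both sides. Cdkn1a (p21), a p53 target, was at 697, 535 and 352 CPM at day 14 and 0.575, 25 and 2.71 CPM in the effector libraries (5.85 ± 0.97, and 8.35 without effector replicate 2), in the melanoma order over 1.98-fold. Cdkn1b (p27), a FOXO target, was at 148, 153 and 146 against 532, 473 and 524 CPM (-1.77 ± 0.12). The INK4 gene Cdkn2a was 60.8-fold (95% counting interval 10.6 to 2433) higher on 1 effector count at under 3 CPM, and Cdkn2d fell (-1.77 ± 0.16). Cdk6, their target kinase, was at 929.8, 1088 and 731 against 136, 135 and 162 CPM (2.67 ± 0.16). Ccnd1, a D-type cyclin, rose by 4.74, or 5.95 without effector replicate 2, from 0.43 CPM or less to 7.59, 4.29 and 3.57 CPM in the melanoma order. The T cell cyclins Ccnd2 and Ccnd3 fell (-0.58 ± 0.22 and -0.89 ± 0.15), Ccnd2 at an adjusted p of 0.0452 that was lost in 14 alternative fits. Among these were each fit without 1 day 14 library and those without effector replicate 3, naive replicate 2 or 3, or day 4 replicate 2 or 3, where it stood at -0.65 to -0.26. In the BCL2 family 9 of 14 rose and 3 fell (median 0.68). Anti-apoptotic Bcl2a1d was at 89.2, 98.7 and 102 against 0.647, 1.89 and 1.62 CPM (6.14 ± 0.27), and its near-identical copies make the split of its reads uncertain. Pro-apoptotic Pmaip1 (NOXA), at 90.3, 80.7 and 85.4 against 5.39, 6.02 and 6.27 CPM (3.86 ± 0.18), and Bcl2l11 (BIM) (1.24 ± 0.18) rose as well. Mcl1 fell from 464, 470.0 and 522 to 259.5, 253 and 257 CPM (-0.92 ± 0.08), while Bcl2 rose by 0.62 ± 0.15.

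Glycolytic genes were higher in 14 of 18 and lower in 2 (median 1.36). Tpi1, triose phosphate isomerase, was at 392, 378 and 343 CPM at day 14 and 27.9, 32.0 and 49.7 CPM in the effector libraries (3.34 ± 0.17, adjusted p = 1.51e-09), and Gapdh at 1328, 1265 and 1222 against 268, 326 and 333 CPM (2.04 ± 0.10). Hk2, the inducible hexokinase, and the lactate exporter Slc16a3 rose by 3.44 ± 0.24 and 2.93 ± 0.29, and the glucose carrier Slc2a1 by 1.70 ± 0.19. The other glucose carrier, Slc2a3, fell from 312, 288 and 435 to 202, 192 and 175 CPM (-0.86 ± 0.12), as did the muscle-type Pfkm (-0.78 ± 0.18). Hypoxia-response genes were less uniform, 11 higher and 2 lower of 17 (median 0.80). Pdk1, which keeps pyruvate out of mitochondria and is a textbook HIF target, was at 61.2, 51.6 and 52.1 against 343, 312 and 259 CPM (-2.47 ± 0.14, adjusted p = 6.43e-10). Kdm3a fell too (-0.92 ± 0.10). Car9 rose by 3.89, or 3.21 without day 14 replicate 1, and P4ha2 by 1.72, or 2.49 without effector replicate 3, and it was not called without day 14 replicate 1 (1.29). Its day 14 values followed the melanoma order. Vegfa, whose day 14 values followed that order too, and Egln3 were not called (1.15 ± 0.59 and -0.05 ± 0.22). With day 14 replicate 1 and effector replicate 2 both left out, 7 hypoxia genes were called higher.

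Nuclear-encoded respiratory chain genes were higher in 14 of 21 and lower in 1, by small steps (median 0.52). Cycs, cytochrome c, rose by 1.78 ± 0.14, the complex IV subunit Cox7a2 by 1.41 ± 0.12, and the ATP synthase subunit Atp5b from 442, 469 and 452 to 1008, 1032 and 1006 CPM (1.16 ± 0.08). Sdha of complex II fell (-0.30 ± 0.08). Of the 11 tested mitochondrially encoded genes edgeR called none (median -0.14), 1 had an unadjusted p under 0.05, and DESeq2 called 1 higher. Without effector replicate 2, 3 of them were called lower. Among them mt-Co1 was at 38975, 33118 and 41296 CPM against 47474, 38443 and 60406 CPM (-0.37 ± 0.17), with overlapping groups.

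Cholesterol synthesis was raised in 15 of 21 genes and lowered in 1 (median 1.04). Idi1, which isomerises isopentenyl diphosphate, was at 22.1, 29.9 and 26.6 CPM at day 14 and 2.30, 4.30 and 4.64 CPM in the effector libraries (2.81 ± 0.22, adjusted p = 1.31e-08). Cyp51, which demethylates lanosterol, rose by 2.62 ± 0.29. Tm7sf2, a sterol reductase, fell (-1.28 ± 0.28). Fatty acid genes did not move together (7 higher and 5 lower of 17, median 0.28). Elovl6, an elongase, was at 26.1, 25.7 and 26.6 against 217, 222 and 152 CPM (-2.91 ± 0.16), and Cpt1a, the gate to fatty acid oxidation, fell (-0.61). Scd1 (3.50, and 2.75 without day 14 replicate 1) and Ppargc1a, 98.7-fold (95% counting interval 33.5 to 481) higher on 3 effector counts (log2 fold change 6.50, and 9.81 without effector replicate 1), had day 14 values in the melanoma order, 13.5, 5.53 and 2.85 and 12.6, 8.41 and 2.48 CPM. Serine, one-carbon and amino acid transport genes were higher in 13 of 16 and lower in none (median 1.42). Slc7a5 and Slc3a2, the chains of the leucine carrier LAT1, rose by 2.47 ± 0.27 and 2.36 ± 0.10, and Psat1, of serine synthesis, from 21.1, 31.7 and 27.8 to 126, 144 and 171 CPM (2.46 ± 0.17). Asns rose by 2.66, or 3.31 without effector replicate 3. The glutamine carriers Slc1a5 and Slc38a1 were not called (-0.07 ± 0.12 and 0.02 ± 0.08). Odc1, which makes polyamines from ornithine, lay outside the lists and had 1 of the 10 largest rises, at 1208, 1322 and 1278 CPM at day 14 and 58.7, 86.5 and 65.3 CPM in the effector libraries (4.18 ± 0.21, adjusted p = 1.11e-08).

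Protein folding lists had larger medians than the ribosomal ones. In the unfolded protein and integrated stress list 12 of 15 were higher and 2 lower (median 1.37). Hspa5 (BiP), the chaperone of the endoplasmic reticulum, was at 1673, 1554 and 1653 CPM at day 14 and 334, 325 and 393 CPM in the effector libraries (2.21 ± 0.15, adjusted p = 9.65e-09). Ppp1r15a (GADD34), which restarts translation, rose by 2.57 ± 0.18, and the sensors Ern1 and Atf6 by 1.98 ± 0.19 and 1.92 ± 0.25. The 2 members that fell are death-linked targets of ATF4: Trib3, at 0.396, 0.176 and 0.424 against 12.1, 11 and 11.4 CPM (-5.08 ± 0.51), and Ddit3 (CHOP), at 7.72, 6.23 and 6.90 against 15.7, 21.8 and 15.4 CPM (-1.34 ± 0.23). Atf4 itself rose (1.49 ± 0.11). Of the heat shock and chaperone genes 11 of 14 were higher and none lower (median 0.91). Hsp90ab1 rose from 1389, 1458 and 1580.4 to 3637, 3857 and 4076 CPM (1.39 ± 0.10), while the master factor Hsf1 was not called (-0.13 ± 0.13). Hspa1a and Hspa1b, near-identical copies whose read split is uncertain, rose to 8 to 12 CPM. Ribosome biogenesis genes were higher in 11 and lower in 3 of 20 (median 0.28), led by the snoRNP protein Nop58 (1.37 ± 0.10). Wdr12, Rrp12 and Ubtf fell (-0.61, -0.71 and -0.34), and without day 14 replicate 1 only 1 of the 3 was called. Rrp12 was not called without effector replicate 3 (-0.23) or day 14 replicate 2 (-0.68) either. Of the cytosolic ribosomal protein genes 2 rose, 4 fell and 16 were not called (median -0.01). Rpl3 rose (0.39 ± 0.09), and the counts ranged over 1 to 4 higher and 2 to 5 lower with single libraries left out or other settings.

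Redox and metal-binding genes were called higher in 8 of 17 and lower in 2 (median 0.22). The share called, 58.8%, was near the 61.0% of all genes. More were called higher and fewer lower than the 32.6% and 28.4% of all genes, a difference that was not tested. Mt1, a metallothionein, was at 26.8, 23.0 and 14.0 CPM at day 14 and 0.791, 3.53 and 1.01 CPM in the effector libraries (3.61 ± 0.47, and 4.55 without effector replicate 2), in the melanoma order over 1.92-fold, Hmox1 rose by 2.55 (3.52 without it) and thioredoxin, Txn1, by 1.89 ± 0.21. Nfe2l2 (NRF2), the factor that drives several genes of the list, was at 33.7, 26.8 and 33.6 against 114, 164 and 83.4 CPM (-1.94 ± 0.21), opposite in direction to Mt1, Hmox1 and Txn1. Gclc was the other faller, called here (-0.31 ± 0.11) and not in 11 alternatives. Among these were the fits without effector replicate 1 (-0.18), effector replicate 2 (-0.28), day 14 replicate 1 (-0.26), day 14 replicate 2 (-0.25), day 4 replicate 2 (-0.27) and day 4 replicate 3 (-0.27). Lysosomal genes were near the all-gene split, 7 higher and 8 lower of 20 (median -0.23). The cathepsins Ctsb and Ctsd rose by 1.20 ± 0.10 and 0.66 ± 0.13 and the cholesterol carrier Npc2 fell (-1.67). Cd63, a tetraspanin of melanosomes and granules, was 1486-fold (95% counting interval 266 to 58714) higher on 1 effector count, with day 14 values of 65.2, 32.3 and 20.8 CPM in the melanoma order over 3.13-fold.

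Interferon-stimulated genes were lower in 11 of 22 and higher in 3 (median -0.86), 5 higher without effector replicate 2. The share called, 63.6%, was near the 61.0% of all genes, with more lower calls than the 28.4% of all genes. Oas3, an RNA sensor, was at 11.4, 9.52 and 16.7 CPM at day 14 and 50.9, 105 and 93.2 CPM in the effector libraries (-2.73 ± 0.37), and the sensor gene Ddx58 (RIG-I) fell from 185, 223 and 188 to 76.2, 75.9 and 71.6 CPM (-1.41 ± 0.12). Irf7 and Stat2, which carry the signal, fell (-1.18 and -1.15). Isg15, a ubiquitin-like modifier, rose (1.77 ± 0.28), at 39.0, 32.8 and 36.9 against 8.05, 13.7 and 10.1 CPM, as did Mx2 and Isg20 (1.85 and 0.70). MHC class I presentation genes were lower in 8 of 15 and higher in 3 (median -0.25), but 4 or 5 were called lower in 10 alternatives, among them those without effector replicate 2 or 3 (4 each) and without day 14 replicate 1 or day 4 replicate 2 or 3 (5 each). The peptide transporter Tap2 fell (-1.11 ± 0.13), and B2m was not called (-0.08 ± 0.09). All 8 of 8 GIMAP genes, lymphocyte GTPases linked to survival of resting T cells, were lower (median -1.53). Gimap4 was at 818, 786 and 841 CPM at day 14 and 2734, 3153 and 3294 CPM in the effector libraries (-1.91 ± 0.11, adjusted p = 4.59e-10), 1 of the 10 largest falls in CPM, and Gimap3 fell (-2.41 ± 0.09). The GIMAP genes lie side by side on chromosome 6, and the list's members are not independent.

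Chromatin regulators were higher in 12 and lower in 7 of 20 (median 0.71). Dnmt3a, the de novo DNA methyltransferase linked to fixing the exhausted state, was at 307, 274 and 331 CPM at day 14 and 132, 136 and 133 CPM in the effector libraries (1.18 ± 0.10, adjusted p = 4.88e-08). Its maintenance counterpart Dnmt1 rose by 1.23 ± 0.12, and Dnmt3b fell (-0.53 ± 0.14). The EZH paralogues moved apart: Ezh2, the methyltransferase of dividing cells, rose by 1.20 ± 0.11 and Ezh1, that of resting cells, fell (-1.65 ± 0.11). Among the TET demethylases Tet2 rose (0.74 ± 0.08) and Tet1 and Tet3 fell (-1.71 and -0.88), Tet1 with day 14 values in the melanoma order. Kdm6b, an H3K27 demethylase, rose by 2.23 ± 0.19, and Uhrf1, the partner of DNMT1, by 3.62, or 5.46 without effector replicate 2. Kmt2d, Hdac7 and Arid1a fell (-1.21, -0.80 and -0.38).

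**Figure D4:**
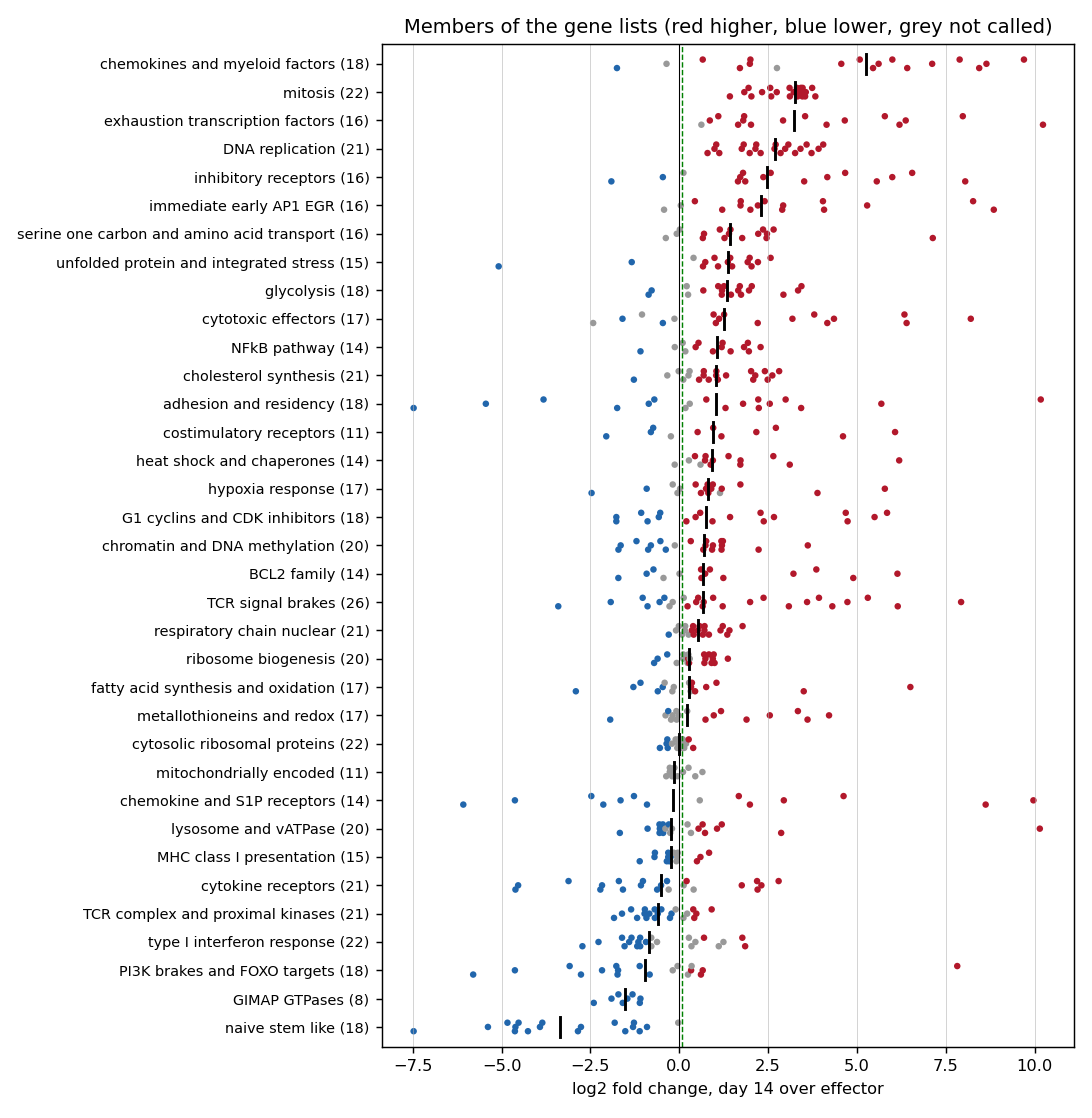
Log2 fold change, day 14 over effector, of each tested member (points) of the 35 function lists, sorted by list median (black tick), with members called higher in red, called lower in blue and not called in grey; the green dashed line is the median of all genes, 0.06, and the number of tested members is in parentheses. Medians run from 5.27 for the chemokines and myeloid factors to -3.35 for the naive and stem-like genes, and lists such as adhesion and residency hold members on both sides.

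Several genes outside the function lists had among the largest changes. Litaf, a lysosomal membrane protein, was at 288, 272 and 241 CPM at day 14 and 1.58, 5.85 and 0.464 CPM in the effector libraries (6.71 ± 0.54, and 7.99 without effector replicate 2), and Plek (pleckstrin), a protein kinase C substrate of blood cells, at 945, 877 and 798 against 6.90, 25.4 and 13.3 CPM (5.86 ± 0.42). Ttn, which encodes the muscle protein titin, was at 235, 247 and 251 against 3.88, 3.87 and 3.71 CPM (6.0 ± 0.19, adjusted p = 4.77e-12), with all 6 values close to their group's mean. The melanosome gene Gpnmb, already counted among the melanoma markers, was at 389.7, 172 and 85.0 against 1.65, 5.68 and 3.95 CPM and followed the melanoma order (5.86, and 5.16 without day 14 replicate 1). By absolute change, Lcp1 (L-plastin) and Actb, of the actin cytoskeleton, rose by 1.14 ± 0.09 and 0.52 ± 0.09, with Lcp1 at 2303, 2591 and 2506 against 1068, 1209 and 1090.0 CPM. Among the fallers, Gm14085, a near copy of the nucleoside carrier gene Slc28a2 at chr2:122484941-122528040 (GRCm38), was at 2.90, 0.764 and 2.18 CPM at day 14 and 1587, 1144 and 1386 CPM in the effector libraries (-9.47 ± 0.48), and the split of reads between the copies is uncertain. Smc4, a condensin subunit, was at 672, 734 and 881 against 3642, 3733 and 3419.8 CPM (-2.24 ± 0.12, adjusted p = 3.44e-10), a fall in libraries where all other mitotic genes listed rose. Samhd1, which degrades nucleotides in resting cells, fell from 1968, 2917 and 2231 to 338, 273 and 316 CPM (-2.94 ± 0.18). Tlr1, Selenop, Treml2 and Tdrp fell (-4.71, -4.62, -6.02 and -5.26), and Macf1, Mbnl1 and Ms4a6b, abundant in both groups, fell as well (-1.53, -0.86 and -2.48).

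How much of the difference was already present on day 4 was read from the direct test of day 14 against day 4, which called 1984 of the 16426 genes (12.1%), 1178 higher (7.17%) and 806 lower (4.91%). It fell to 1283 without day 14 replicate 2, 1332 without day 4 replicate 1, 1347 without day 4 replicate 2 and 1463 without day 14 replicate 1. The comparisons of each day with the effector group share the 3 effector libraries, so their values are only set side by side. None of the 3 NR4A factors was called between the days: Nr4a2 was at 2620.0, 2518 and 2369 CPM on day 4, a difference of -0.25 ± 0.20 (adjusted p = 0.512). Tnfrsf9 (0.08 ± 0.12), Xcl1 (-0.92 ± 0.38) and Mki67 (0.08 ± 0.90) were not called either, and for Mki67 the standard error leaves the size unresolved. Pdcd1 and Tox were above day 4 by 0.88 ± 0.21 and 0.96 ± 0.12, having stood at 373, 353 and 409 and 310.3, 416 and 380.4 CPM on day 4. Other genes were higher on day 14 than on day 4. Ccl5 was at 24.7, 26.1 and 43.1 CPM on day 4, below the effector libraries, and 538, 568 and 339.8 CPM on day 14 (3.94 ± 0.61, adjusted p = 0.00388). Prdm1 differed between the days by 3.37 ± 0.59, Entpd1 by 2.53 ± 0.38, Prf1 by 2.41 ± 0.24, Ccl3 by 2.37 ± 0.39 and Cxcr6 by 3.02 ± 0.35. Ccr6 went the other way, at 132, 158 and 143 CPM on day 4 and 15.1, 9.58 and 28.4 on day 14 (-3.03 ± 0.41). Of the naive and stem-like genes, Satb1, Bach2 and Tcf7 were lower on day 14 than on day 4 (-2.42, -2.35 and -2.02). Dapl1 and Ccr7 were lower than on day 4 as well (-3.0 and -2.37). S1pr1 and Il7r were not called between the days (0.85 ± 0.54 and -0.76 ± 0.39). The GIMAP genes ran against their difference from the effector cells, with 6 of 8 higher on day 14 than on day 4. Melanoma marker sums overlapped between the days, and no melanoma marker was called.

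Of the genes called higher by at least 4-fold, 616 (26.1%) had day 14 values that fell from replicate 1 to replicate 2 to replicate 3, the order of the melanoma sum, with at least a 2-fold span. The share was 12.6% for all genes called higher (676), 2.91% for genes called lower (136) and 7.47% for all genes (1227). Among the genes named above, Cd63, Ccl3, Ccl9, Gzmf, Klf4, Ccnd1, Scd1, Ppargc1a and Gpnmb were among those 616, and Nr4a2, Tox, Bhlhe40, Tigit and Pdcd1 were not. Whether genes in that order reflect tumour RNA was not tested.

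**Figure D5:**
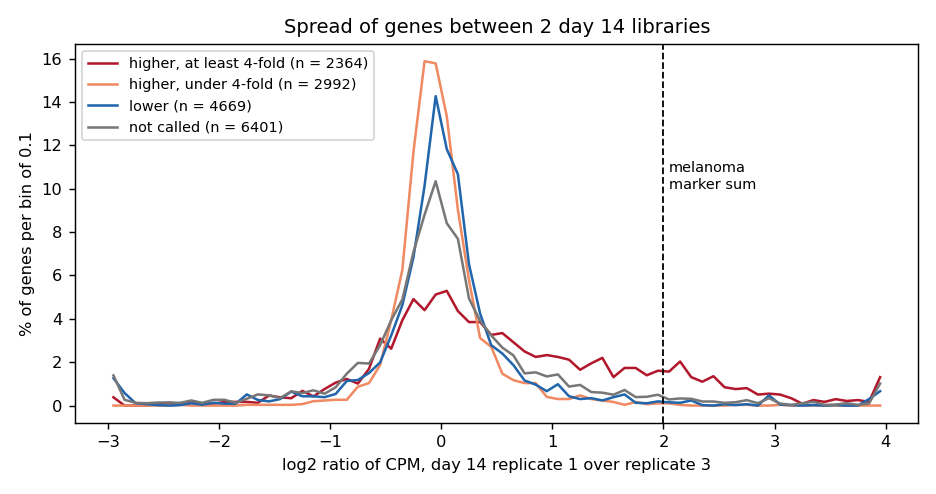
Percent of genes per bin of 0.1 of the log2 ratio of CPM in day 14 replicate 1 over replicate 3, for genes called higher by at least 4-fold (2364), higher by less (2992), lower (4669) and not called (6401); ratios beyond the axis are counted in the end bins, and the dashed line is the ratio of the melanoma marker sums. The curve of the strongly raised genes is broad and reaches the dashed line, while the other curves peak near 0.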

How the data were processed

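Gene counts per library were deposited by the authors as raw counts. The submitters' processing notes list fastp 0.19.6, STAR 2.6.1b and the build GRCm38. Per the labels' protocols, RNA was amplified before library preparation, and libraries with few coding or unique reads were rejected. How reads were counted, and on which annotation, is not given in the sources used here. The unstranded counts were used, since only 49.8% to 49.9% of strand-assigned reads were in sense. Without strand, a gene cannot be told apart from an antisense partner. The summary lines that name no gene were left out of library sizes. Reads outside genes were 20.7% to 30.2% of each library.

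Gene names came from GENCODE M21 (55141 of 55401 identifiers matched, 260 unmatched). Genes were filtered by edgeR's filterByExpr, scaled with TMM factors and tested in edgeR 4.0.16 (R 4.3.3) by the quasi-likelihood test over all 12 libraries in 4 groups, with 8 residual degrees of freedom and Benjamini-Hochberg adjustment over all genes. The procedure was checked on simulated counts, in which, unlike here, few genes changed and all genes had the same spread. A fold against 0 effector counts was set against 3 counts over that group, and ratios on 1 to 3 counts carry 95% counting intervals. Both cover counting error only. Alternatives were total-count and RLE scaling, no filter and a stricter filter (at least 5 CPM in 3 libraries), a replicate block, the 6 compared libraries alone, each library left out, and DESeq2 1.42.0.

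Named genes were the 15 highest and 15 lowest log2 fold changes and the 10 largest rises and falls in CPM among genes called, not overlapping and above a mean log2 CPM of 4, plus the panel and the extremes of each list. Other members of the 35 function lists and 11 marker lists were named after their values were seen, to show where a list was uneven. Members and lists were chosen with earlier results of these data known. A few members of the panel and lists are not reported here.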

Additional observations from a re-analysis of the deposited data

Results flagged for a closer look

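For 14 of the genes followed throughout, the effect relative to the effector cells differed between day 14 and day 4. The effects share the 3 effector libraries, so the test of their difference is that of day 14 against day 4 (edgeR's quasi-likelihood test, Benjamini-Hochberg adjusted p under 0.05 over all genes). Over all 16426 genes that test called 1984 (12.1%). The genes followed were chosen with earlier results of these data known, so their count is no measure of enrichment. Others among them, such as Nr4a2 and Mki67, were not called. The effect was higher on day 14 by 3.94 on the log2 scale for Ccl5, 3.37 for Prdm1, 2.53 for Entpd1, 2.41 for Prf1, 2.37 for Ccl3, 2.16 for Ccl4 and 2.07 for Id2. It was higher by 1.22 for Ctla4, 1.03 for Ifng, 0.96 for Tox and 0.88 for Pdcd1. The values of the 3 genes that were lower on day 14 were -2.02 for Tcf7, -1.58 for Id3 and -1.41 for Slamf6. Groups of 3 libraries were too small for a check of single outlying values.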

How the results depend on the processing

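The direction of no gene called in both fits was opposite under any alternative. With 1 library left out, genes called ranged from 9313 to 10196, genes called higher from 5190 to 5608, genes called lower from 4121 to 4707 and genes called by at least 2-fold from 5977 to 6424. The stricter filter, which tests 11070 genes, left 7783 called and 3898 by at least 2-fold against 6197. With no filter 33120 genes were tested and 10456 called. The 6 compared libraries alone gave 8982 calls and DESeq2 10125. Leaving out day 14 replicate 1 and effector replicate 2 together, an alternative chosen after seeing the data, gave 9020. Between day 14 and day 4, calls ranged from 1283 (without day 14 replicate 2) to 2206 with 1 library left out, and were 2449 by DESeq2. The share of calls that were higher was 53.4%, and 51.6% to 57.2% under the alternatives. Total-count scaling moved the median of all genes from 0.06 to 0.12. The deviations of same-numbered day 14 and effector libraries correlated at -0.013, 0.011 and -0.023. A correlation over all genes cannot decide whether same-numbered libraries share a day, animal or batch, and the labels do not say. The replicate block gave 9887 calls, 5302 higher, 4585 lower, 6122 by at least 2-fold and 1931 between day 14 and day 4, with Mki67 at 4.04 and Ccna2 at 4.20. Without those 2 libraries Dusp5 stood at 5.96, Ifngr2 at -3.82, Treml2 at -6.67 and Car9 at 2.85. Depth limits the genes with under 10 effector counts, whose folds rest on counting error.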

Other observations

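Non-coding classes were counted beside the protein-coding genes, of which 36.3% (4487 of 12367) were called higher and 30.2% (3738) lower at day 14 (median log2 fold change 0.07; edgeR's quasi-likelihood test, adjusted p under 0.05). Of 73 tested snoRNA genes, whose RNAs guide modification of ribosomal RNA, 26 (35.6%) were higher and 2 (2.74%) lower (median 1.26). Their host genes Snhg15, Snhg1 and Snhg5 rose by 1.82 ± 0.13, 0.94 ± 0.13 and 0.66 ± 0.13, while Gas5, another host, was not called, at 416, 532 and 511 CPM at day 14 and 511, 608 and 566 CPM in the effector libraries (-0.21 ± 0.09). Reads of a snoRNA and of its host's introns were not separated. Of the lincRNA genes 185 of 455 (40.7%) were lower and 98 (21.5%) higher (median -0.86), and of the bidirectional promoter transcripts 23 of 52 (44.2%) lower and 4 (7.69%) higher (median -1.21). Sense intronic transcripts (30.5% higher, 17.2% lower), miRNA genes (26.6% and 14.1%) and unclassified TEC genes (25.7% and 18.02%) held more higher than lower calls, as the protein-coding genes did. Differences between classes were not tested. Malat1, an abundant nuclear RNA, was at 1968, 1515 and 1509 CPM at day 14 and 2842, 2611 and 3017 CPM in the effector libraries (-0.76 ± 0.13, adjusted p = 8.33e-05), with no overlap, and Neat1 was not called (-0.40 ± 0.23). These genes were chosen after their values were seen.

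Of the 4 tested B cell markers Cd79a and Cd79b fell, Cd79b at 1.52, 0.353 and 1.51 CPM at day 14 and 5.61, 8.43 and 6.65 CPM in the effector libraries (-2.61 ± 0.43). Of 2 tested NK cell markers Eomes rose, a gene that CD8 T cells also express, and Eomes and Gzma, those tested, summed to 141, 181 and 149.8 CPM at day 14 and 18.9, 176 and 27.5 CPM in the effector libraries, which overlap. Pecam1, the one endothelial marker tested, which naive T cells also carry, fell from 177, 179 and 186 to 48.2, 41.2 and 56.0 CPM (-1.90 ± 0.12). The globin genes Hba-a1, Hbb-bs and Hbb-bt had no count in the effector libraries and 7.46, 0.764 and 5.09 CPM of Hbb-bs at day 14, lowest in replicate 2. No neutrophil marker passed the filter on low counts.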
